A study of Mus musculus with 6 samples.

Results

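Cytosolic ribosomal protein genes, which encode the protein part of the ribosomes that translate nuclear messages, were described in the intestinal epithelium of mice labelled Apoe-/- that were gavaged with Candida albicans or with phosphate-buffered saline (PBS). The genes were taken by name: protein-coding genes whose symbol starts with Rpl or Rps and a digit, with Rpsa, Rplp0, Rplp1 and Rplp2. Of 104 such names, 10 Rps6k kinase genes, 8 names that mark pseudogenes and 7 paralogs whose name ends in l were left out. This left 79 of the 54532 genes in the table, with 32 small-subunit names, 43 large-subunit names and 3 names of the acidic stalk. The last, Rps19bp1, meets the rule by its name alone, because it encodes a protein that binds Rps19 and is not part of the ribosome. One of the small-subunit names, Rps27rt, is a retrogene copied from the Rps27 message.

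Both groups carried the same genotype, in which the gene of apolipoprotein E, a lipid transport protein, is disrupted throughout the body. Gavage was given every 3 days for 2 weeks, with PBS in 3 libraries and with the yeast Candida albicans in 3 libraries of polyA RNA. The sources used here give neither age, sex and gut segment nor the number of mice behind a library. The p-values thus reflect only how much these libraries vary, and that variation may be technical. Totals were 21406930 to 24891735 counts per library. Apoe itself was counted in all 6 libraries, at 51.8 to 105.7 CPM, a count set against the scaled total of its library. All 17 enterocyte markers examined, among them the brush-border enzyme lactase (Lct), were counted, and their summed level was 12980 to 44240 CPM with PBS and 68180 to 92750 CPM with Candida albicans. Smooth muscle markers, which an epithelial sample should lack, summed to 523.7 to 7055 CPM with PBS and 205.9 to 1792 CPM with Candida albicans.

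A ribosome holds one copy of nearly every ribosomal protein, so cells keep the output of these genes close to equal. Most of their messages begin with a terminal oligopyrimidine (TOP) tract, a C followed by a run of C and T at the first transcribed base, through which the kinase complex mTORC1 and the RNA-binding protein LARP1 set how strongly the messages are translated and how long they are stored. MYC raises the transcription of the genes that build ribosomes. In the intestinal crypt, dividing progenitors make many ribosomes, whereas enterocytes on the villus have left the cell cycle. Many ribosomal protein genes also carry small nucleolar RNAs (snoRNAs), guides for the modification of ribosomal RNA, in their introns: 30 of the 79 genes held 58 annotated snoRNA genes.

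The start sites below show 3 members with a run of C and T near the annotated start (Rps6, Rplp2 and Rpl15) and 4 members that the results turn on (Rpl7a, Rpl41, Rps27 and Rps27rt), with and without such a run. Each line gives 40 bases before the RefSeq start and 25 bases from it on, in GRCm38.p6 and on the gene's own strand, written from its upstream to its downstream end. Capitals mark the longest unbroken run of C or T of 7 or more bases that lies in the searched range, and a line without capitals has no such run.
Rps6 (chr4:86857343-86857407, minus strand): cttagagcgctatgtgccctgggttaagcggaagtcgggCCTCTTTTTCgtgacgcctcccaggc
Rplp2 (chr7:141447611-141447675, plus strand): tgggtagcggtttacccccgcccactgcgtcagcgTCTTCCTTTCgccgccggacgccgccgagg
Rpl15 (chr14:18270962-18271026, minus strand): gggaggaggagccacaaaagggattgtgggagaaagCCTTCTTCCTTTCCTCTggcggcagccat
Rpl7a (chr2:26910767-26910831, plus strand): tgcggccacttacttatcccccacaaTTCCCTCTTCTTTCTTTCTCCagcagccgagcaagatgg
Rpl41 (chr10:128549144-128549208, minus strand): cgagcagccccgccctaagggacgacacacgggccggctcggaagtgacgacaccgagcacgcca
Rps27 (chr3:90213624-90213688, minus strand): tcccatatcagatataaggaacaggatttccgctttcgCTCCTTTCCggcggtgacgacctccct
Rps27rt (chr9:114982715-114982779, minus strand): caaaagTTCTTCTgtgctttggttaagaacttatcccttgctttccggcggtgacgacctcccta
Rps6, whose protein is phosphorylated by the S6 kinases downstream of mTORC1, has its run from 1 base before the annotated start, Rplp2 from 5 bases before it and Rpl15 from 4 bases before it. Rpl7a and Rpl41 are the pair with the smallest p-values of all members. Rpl7a has a longer run, of 21 bases, that starts 14 bases upstream, and Rpl41 has no run of that length. Rps27 and its retrogene Rps27rt are shown because their log2 fold changes had opposite signs. Rps27 has a run across its start, while the marked run of Rps27rt lies 34 bases upstream of it.

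RefSeq start windows outside chromosome 18 were found for 59 members, and motifs were counted in the 58 without Rps19bp1. A run of 7 or more C or T within 40 bases of the start, read on the gene's strand, was present in 46 members (79.3%), against 42.8% of 27025 genes with a window. The run began within 6 bases of the annotated start in 15 of the 59 members. The letters CTTTCC, searched in the same range and strand and partly overlapping the next motif, were found in 15 members (25.9%) against 3.7% of genes. CTCTTTC was found in 10 members (17.2%) against 1.0%. Over the whole window of 300 bases and on either strand, CGGAAG, the core bound by ETS factors, was present in 40 members (69.0%) against 17.2%. AAGATGGC, the core of the YY1 site, was present in 4 (6.9%) against 2.9%. The MYC box CACGTG was present in 5 members (8.6%) against 7.2%, TATAAA in 5 (8.6%) against 14.2% and CCAAT in 18 (31.0%) against 37.9%. These are matches of letters and not sites shown to be bound.

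With Candida albicans, nearly all of these genes were lower than with PBS by a similar amount, but no single gene passed an adjusted p of 0.05. The log2 fold change (Candida albicans over PBS, also written log2 change and given ± its SE for single genes, n = 3 per group) was below 0 in 77 of 79 genes (97.5%), against 60.5% of the 16313 genes tested. The median was -0.46, which is 27.1% lower, with quartiles of -0.57 and -0.39 and a range of -0.92 to 0.71. Over all genes tested the median was -0.16, with quartiles of -0.67 and 0.24, a difference between the medians of -0.29. Of the 79 genes, 73 lay between -0.8 and -0.2, where 26.8% of all genes lay, and 34.2% of all genes were at or below the median of the members.

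**Figure D1:**
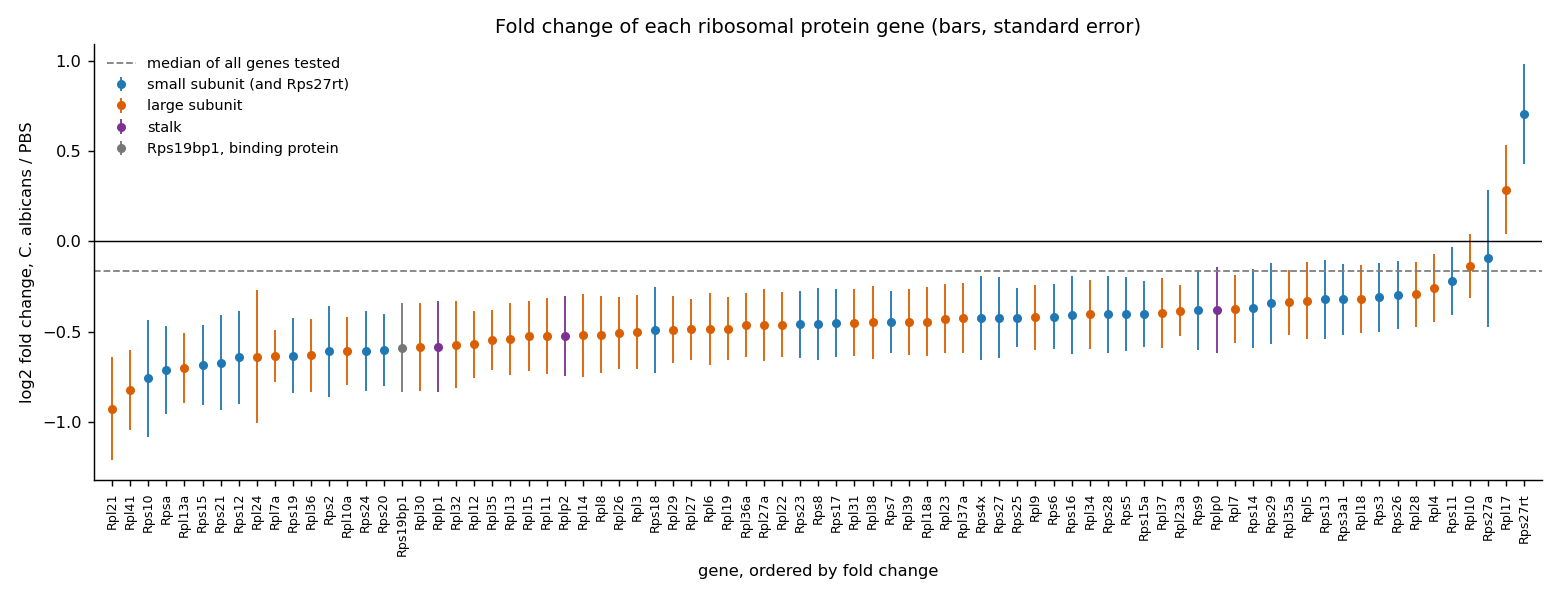
Log2 fold change (Candida albicans over PBS, vertical axis) of each of the 79 genes, ordered from the lowest to the highest along the horizontal axis, with bars for the standard error of the edgeR fit and colours for the subunit. All but Rpl17 and Rps27rt lie below 0, and 75 lie below the dashed line, the median of all genes tested (-0.16).

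At an adjusted p under 0.05, edgeR's quasi-likelihood test called 0 members and 0.0% of all genes. At an adjusted p under 0.1 it called 3 members lower (Rpl7a, Rpl41 and Rpl13a), against 6.04% of all genes, and 0 higher, against 6.61%. At an unadjusted p under 0.05, 37 members were called lower (46.8%), against 16.2% of all genes, and 1 was called higher (Rps27rt), against 13.4%. The count of 37 is made up of 12 small-subunit genes, 24 large-subunit genes, 0 stalk genes and Rps19bp1. All 3 Candida albicans libraries lay below all 3 PBS libraries in 54 members (68.4%), against 18.1% of all genes, and above them in 0, against 17.6%. By the other tools, limma-voom also called 0 members at an adjusted p under 0.05, limma-voom with quality weights called 7 lower (8.86%), close to the 8.2% of all genes it called lower, and 0 higher (against 7.55%), and DESeq2's Wald test called 11 lower (13.9%, against 7.15% of all genes) and 1 higher (against 10.7%).

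The count of calls depends on scaling and on single libraries. With DESeq2 size factors in the same edgeR test, 13 members were called lower (16.5%) beside 12.9% of all genes, and with library totals alone, 73 were (92.4%) beside 33%. All genes called higher were 15.5% with DESeq2 size factors and 5.28% with library totals. Without PBS replicate 3, 11 members were called lower (13.9%, against 8.63% of all genes), and the median of the members was -0.24 against -0.09 for all genes. Without PBS replicate 2 the count was 19 (24.1% against 13.9%), without Candida albicans replicate 1 it was 4 (5.06% against 18.7%), without replicate 2 of that group 13 (16.5% against 9.26%) and without its replicate 3 it was 7 (8.86% against 9.27%). Without PBS replicate 1 the count was 31 (39.2% against 14.8%). The median of the members minus that of all genes ran from -0.36 to -0.15 over these fits.

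**Figure D2:**
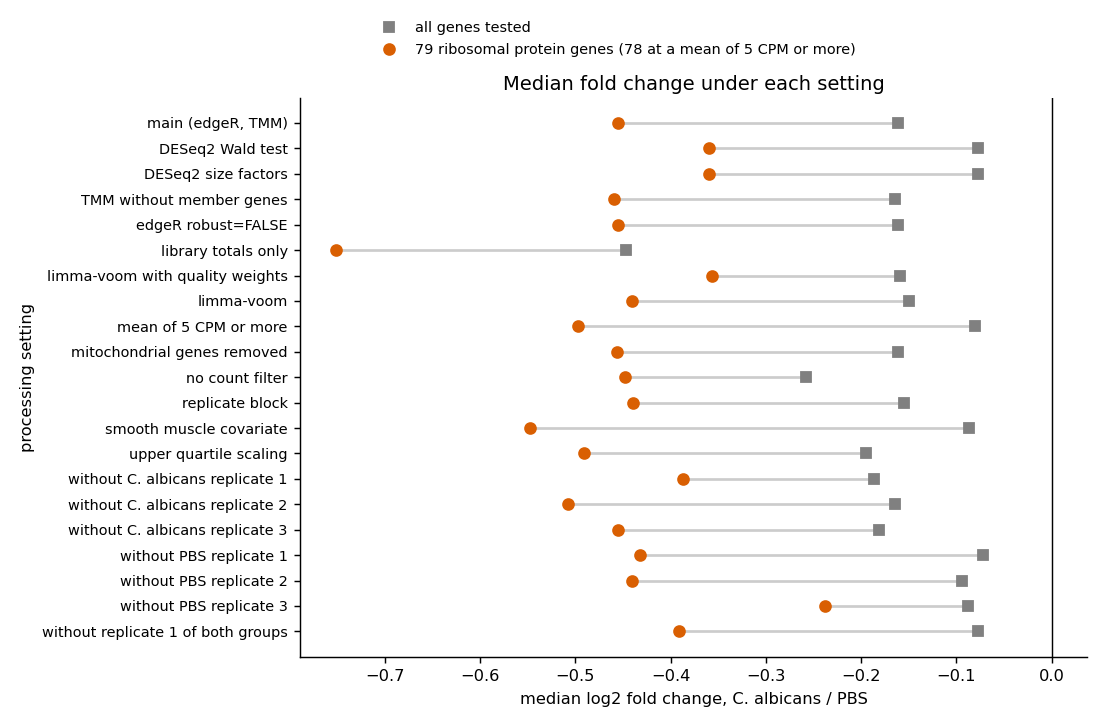
Median log2 fold change (horizontal axis) of the ribosomal protein genes (orange) and of all genes tested (grey) under each processing setting (vertical axis). The median of the members lies left of that of all genes in every setting shown, is lowest with library totals only (-0.75) and is nearest 0 without PBS replicate 3 (-0.24).

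By library, the sum of the 79 genes took 2.52%, 2.82% and 4.28% of all counts in the PBS group and 1.66%, 2.00% and 2.04% in the Candida albicans group, each in the order of replicates 1 to 3 that is used throughout. The groups did not overlap, with 3.21% ± 0.937 (SD, n = 3) against 1.90% ± 0.207 (SD, n = 3). As a share of TMM-scaled totals, the trimmed mean of M values being edgeR's scaling, the sums were 2.38%, 2.65% and 3.63% with PBS and 1.90%, 2.22% and 2.15% with Candida albicans, again without overlap. PBS replicate 3 stood highest, and 73 of 79 genes had their highest library there, against 23.0% of all genes. Candida albicans replicate 1 stood lowest, and 66 had their lowest library there, against 18% of all genes. The SD of log2 CPM was larger with PBS in 74 genes, against 69.2% of all genes, and its median over the members was 0.32 with PBS and 0.13 with Candida albicans.

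**Figure D3:**
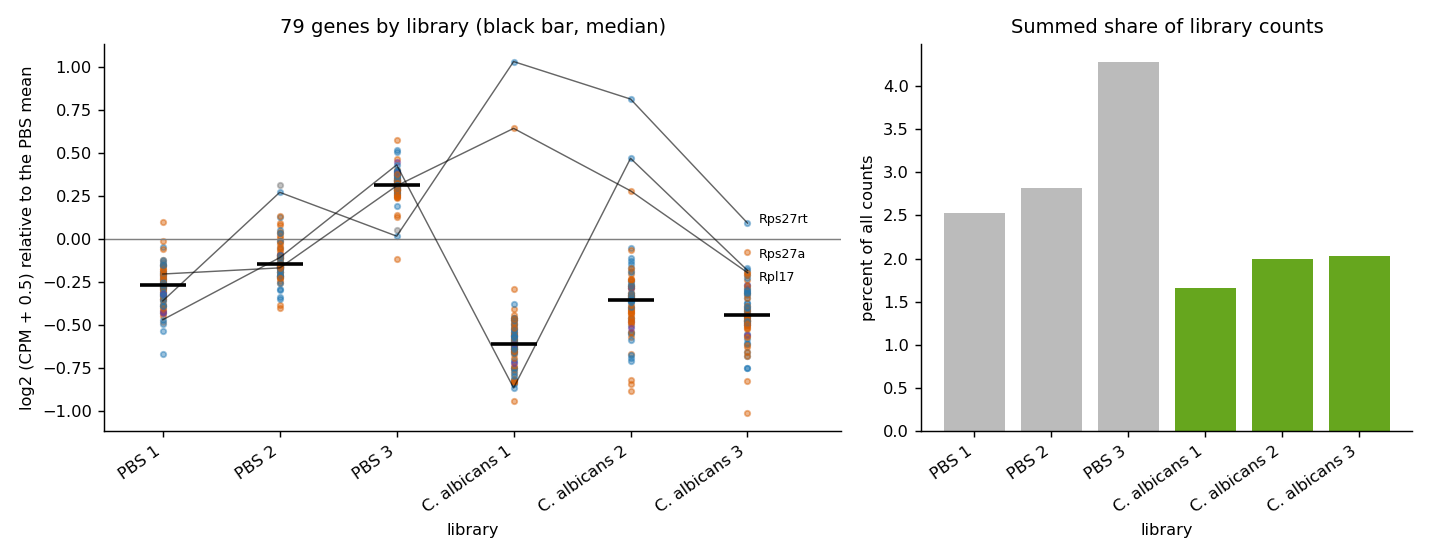
Left, log2 (CPM + 0.5) of each gene in each library relative to its own PBS mean (vertical axis), with black bars for the median of the 79 genes and lines for Rps27rt, Rps27a and Rpl17; right, their summed share of all counts per library in percent. The genes move together from library to library, highest in PBS replicate 3 (4.28% of counts) and lowest in Candida albicans replicate 1 (1.66%), while the lines of Rps27rt and Rpl17 peak in Candida albicans replicate 1.

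Other properties of the libraries were set beside this sum, and only some followed it from library to library. Mitochondrially encoded genes took 6.77%, 5.89% and 8.92% of counts with PBS and 3.19%, 3.93% and 4.63% with Candida albicans, and they too were highest in PBS replicate 3 and lowest in Candida albicans replicate 1. TMM factors were 1.06, 1.07 and 1.18 with PBS and 0.874, 0.899 and 0.949 with Candida albicans. Without the mitochondrial genes, 37 members were again called lower (46.8%, against 16.2% of all genes) and the median was -0.46. With a smooth muscle score as a covariate the median was -0.55 and 12 members were called lower (15.2%), beside 13.4% of all genes. In the main test, 60.5% of all genes were below 0, 16.2% were called lower and 13.4% higher. The marker counts that follow stand beside these shares. Of 17 cell cycle genes, 17 had a log2 fold change below 0 and 14 were called lower at an unadjusted p under 0.05, with a median of -0.98 (8 called without PBS replicate 2 or Candida albicans replicate 1, and 7 without replicate 3 of either group), and their summed level was 328.4 to 659.8 CPM with PBS and 245.7 to 324.5 CPM with Candida albicans. Of 10 crypt stem cell markers, 8 were below 0 and 4 were called lower (2 without replicate 3 of either group), with a median of -0.76, a summed level of 326.9 to 410.7 CPM with PBS and of 207.0 to 388.7 CPM with Candida albicans. Mki67, a marker of dividing cells, was at log2 change -1.23 ± 0.27. Of the 17 enterocyte markers, 16 were called higher (10 without PBS replicate 2), with a median of 1.42 (2.15 without PBS replicate 1), and Lct was at log2 change 2.79 ± 0.56. Of 10 smooth muscle markers, 10 were below 0 and 0 were called, with a median of -2.69, but without Candida albicans replicate 1, 9 were called lower with a median of -8.18, without PBS replicate 2, 3 were, and without PBS replicate 1 the median was -1.63. Of 8 fibroblast markers, 8 were below 0 and 2 were called lower, with a median of -2.15 (without Candida albicans replicate 1, 8 called and -3.84; without PBS replicate 2, 3 called; without any other single library, 1 called), and they summed to 100.8 to 715.3 CPM with PBS and 11.3 to 174.5 CPM with Candida albicans. Paneth cell, goblet cell and lymphocyte markers had medians of 0.38, 0.10 and -0.30, with 0 of 7, 1 of 7 and 0 of 11 called lower and 0, 2 and 1 called higher. Without Candida albicans replicate 1, 4 Paneth markers were called higher and 7 lymphocyte markers lower, with medians of 0.81 and -1.57. The sign of the Paneth median turned without Candida albicans replicate 2 (-0.24), and that of the goblet median without replicate 3 of that group (-0.04) and with library totals (-0.18). By library, summed crypt stem cell markers were highest in PBS replicate 3 and lowest in Candida albicans replicate 1, like the members. Between these ends their order differed. Candida albicans replicate 2 (388.7 CPM) lay above PBS replicates 1 and 2 (326.9 and 358.8 CPM), while the summed members did not overlap between groups. Summed enterocyte markers were lowest in PBS replicate 3 and highest in Candida albicans replicate 1. Cell cycle genes instead peaked in PBS replicate 2 (659.8 CPM), and smooth muscle and fibroblast markers in PBS replicate 1 (7055 and 715.3 CPM). The part of the enterocyte, crypt, cell cycle and fibroblast markers in the lower ribosomal protein levels was not tested. In bulk RNA, fewer cells of a type and less RNA per cell cannot be told apart.

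The small subunit decodes the message. Of its 32 names, 31 were below 0, with a median log2 fold change of -0.42. At an unadjusted p under 0.05, 12 were called lower, against 16.2% of all genes. In 17, all Candida albicans libraries lay below all PBS libraries, against 18.1% of all genes. Rpsa, which sits on the outside of the small subunit and is also known as the laminin receptor, had 675, 918 and 1255 CPM after PBS and 565, 580.3 and 594 CPM after Candida albicans. The groups did not overlap, and the PBS libraries spanned a wider range than the Candida albicans libraries (log2 change -0.71 ± 0.24, SE; adjusted p = 0.124). Rps15, a protein of the subunit's head, had 414, 500.2 and 708 CPM after PBS and 333, 334 and 343 CPM after Candida albicans, with nearly equal values in the Candida albicans libraries (log2 change -0.68 ± 0.22, SE; adjusted p = 0.112). Rps19, mutated in people with Diamond-Blackfan anaemia, had 299.8, 333 and 481 CPM after PBS and 221, 254 and 244 CPM after Candida albicans (log2 change -0.63 ± 0.21, SE; adjusted p = 0.116). All 3 of these genes were highest in PBS replicate 3, and their groups were separate.

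Rps6, whose start is shown above, had 402, 423 and 571 CPM after PBS and 329, 362 and 356 CPM after Candida albicans. Its groups were also separate (log2 change -0.42 ± 0.18, SE; adjusted p = 0.177). Rps15a had 193, 195 and 272 CPM after PBS and 146, 184 and 170.3 CPM after Candida albicans (log2 change -0.40 ± 0.18, SE), and Rps4x, encoded on the X chromosome, had 447, 391 and 656 CPM after PBS and 322, 378 and 414 CPM after Candida albicans (log2 change -0.42 ± 0.23, SE). Rps15a was separate between groups, and Rps4x overlapped, since its Candida albicans replicate 3 lay above its PBS replicate 2. Rps27a, which is made as a fusion of ubiquitin to a ribosomal protein, had 104, 133 and 194 CPM after PBS and 78.8, 199 and 127 CPM after Candida albicans. Its highest value was in Candida albicans replicate 2 and its lowest in replicate 1 of that group, so that the groups overlapped across their whole range (log2 change -0.09 ± 0.38, SE; adjusted p = 0.881), and its sign turned positive with DESeq2 size factors (0.02) and without PBS replicate 3 (0.23) or Candida albicans replicate 1 (0.19).

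The large subunit joins amino acids into protein. Of its 43 names outside the stalk, 42 were below 0, with a median log2 fold change of -0.48. At an unadjusted p under 0.05, 24 were called lower, against 16.2% of all genes. In 35, all Candida albicans libraries lay below all PBS libraries, against 18.1% of all genes. Rpl7a (GRCm38 chr2:26910764-26913318, with 3 snoRNA genes inside it) had the smallest p-value of all members. It had 140.3, 132 and 121 CPM after PBS and 83.0, 72.8 and 97.6 CPM after Candida albicans, a pattern in which PBS replicate 1 and not replicate 3 was highest (log2 change -0.63 ± 0.14, SE; adjusted p = 0.0786). Rpl41 (chr10:128548114-128549305), which encodes the smallest ribosomal protein, had 825, 1203 and 1349 CPM after PBS and 665, 610.1 and 635 CPM after Candida albicans (log2 change -0.82 ± 0.22, SE; adjusted p = 0.0891). Rpl21 had 101, 105 and 204 CPM after PBS and 71.2, 77.4 and 67.6 CPM after Candida albicans, highest in PBS replicate 3 (log2 change -0.92 ± 0.29, SE; adjusted p = 0.107). Leaving out PBS replicate 3 moved the log2 fold change of 22 of the 28 named members by over 1.5 times, among them Rpl21 to -0.48, Rps4x to -0.14, Rpl5 to -0.06, Rplp0 to -0.10, Rplp1 to -0.25 and Rplp2 to -0.23. Rpl7a and Rpl41, at -0.65 and -0.63 without it, were among the 6 that moved less.

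Rpl10a had 418, 468 and 612 CPM after PBS and 299.7, 337 and 348 CPM after Candida albicans (log2 change -0.61 ± 0.19, SE; adjusted p = 0.106). Rpl35, near the exit of the tunnel through which the new protein leaves, had 163, 183 and 237 CPM after PBS and 125, 138 and 136 CPM after Candida albicans (log2 change -0.55 ± 0.17, SE; adjusted p = 0.106). For both, each Candida albicans library lay below each PBS library. Rpl36 had 219, 290.4 and 342 CPM after PBS and 161, 209 and 179.7 CPM after Candida albicans (log2 change -0.63 ± 0.20, SE; adjusted p = 0.113), also without overlap. Rpl13 had 525, 590.3 and 798 CPM after PBS and 404, 459 and 452 CPM after Candida albicans (log2 change -0.54 ± 0.20, SE), and Rpl36a had 164, 158 and 226 CPM after PBS and 124, 146 and 128 CPM after Candida albicans (log2 change -0.46 ± 0.18, SE). Rpl22, which can be lost without stopping translation, had 165, 168 and 234 CPM after PBS and 125, 152 and 136 CPM after Candida albicans (log2 change -0.46 ± 0.18, SE). Rpl5 and Rpl11 leave the ribosome's assembly line together and, when assembly fails, bind MDM2, the ubiquitin ligase that keeps p53 low. Rpl11 had 251, 321 and 378 CPM after PBS and 179, 252 and 230.2 CPM after Candida albicans (log2 change -0.52 ± 0.21, SE; adjusted p = 0.156). Rpl5 had 353, 342 and 532 CPM after PBS and 291, 339 and 347 CPM after Candida albicans (log2 change -0.33 ± 0.21, SE; adjusted p = 0.321). Both genes overlapped between groups, Rpl11 in Candida albicans replicate 2 and Rpl5 in replicate 3.

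The acidic stalk of the large subunit recruits elongation factors and is built from Rplp0, its base, and dimers of Rplp1 and Rplp2. All 3 genes were below 0, with a median log2 fold change of -0.52. At an unadjusted p under 0.05, 0 were called, against 16.2% of all genes called lower and 13.4% called higher. Rplp0 had 911, 1015 and 1479 CPM after PBS and 745, 934 and 944 CPM after Candida albicans (log2 change -0.38 ± 0.24, SE; adjusted p = 0.309). Rplp1 had 611, 735 and 1121 CPM after PBS and 499.8, 589.5 and 559 CPM after Candida albicans (log2 change -0.58 ± 0.25, SE; adjusted p = 0.178). Rplp2 had 322, 404 and 564 CPM after PBS and 290.4, 300.2 and 307 CPM after Candida albicans (log2 change -0.52 ± 0.22, SE; adjusted p = 0.173). Rplp1 and Rplp2 did not overlap between groups, while Rplp0 in Candida albicans replicates 2 and 3 lay above its PBS replicate 1. Counts of small-subunit genes over those of large-subunit and stalk genes gave ratios of 0.723, 0.712 and 0.748 with PBS and 0.720, 0.742 and 0.735 with Candida albicans. These overlapped, with 0.728 ± 0.0184 (SD, n = 3) against 0.732 ± 0.0109 (SD, n = 3), so no shift between the subunits exceeded the spread of the libraries. Rps19bp1, the binding protein, had 11.7, 20.7 and 17.1 CPM after PBS and 9.13, 11.8 and 11.96 CPM after Candida albicans (log2 change -0.59 ± 0.25, SE; adjusted p = 0.168). Genes with a snoRNA inside and those without had medians of -0.46 and -0.45. At an unadjusted p under 0.05, 14 of 30 and 23 of 49 were called lower, against 16.2% of all genes.

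Rps27rt and Rpl17 were the members with a log2 fold change above 0. Rps27rt (chr9:114982366-114982739, minus strand) had 28.4, 44.3 and 37.0 CPM after PBS and 75.3, 64.7 and 39.1 CPM after Candida albicans (log2 change 0.71 ± 0.28, SE; adjusted p = 0.152). Its Candida albicans replicate 3 fell within the PBS range, so the groups overlapped. Rpl17 had 59.6, 61.1 and 85.2 CPM after PBS and 108, 83.5 and 59.9 CPM after Candida albicans (log2 change 0.28 ± 0.25, SE; adjusted p = 0.444), with its highest value, like that of Rps27rt, in Candida albicans replicate 1, and its sign turned negative with library totals (-0.02). Rps27, the source of the retrogene, had 202, 166 and 259 CPM after PBS and 120.5, 176 and 172 CPM after Candida albicans (log2 change -0.42 ± 0.22, SE; adjusted p = 0.246). It was lowest in the library where Rps27rt was highest. The transcripts of Rps27 (345 bases) and Rps27rt (374 bases) are identical over 341 bases, and the rest of Rps27rt includes a run of 31 A at its end. Of their 50-base words, 98.6% and 91.1% occur in another gene, so reads may have been assigned to either and both values are uncertain. The sum of both genes was 231.0, 210.2 and 296.4 CPM with PBS and 195.8, 241.2 and 211.2 CPM with Candida albicans, with overlap between the groups. The value of Rpl17 is uncertain too. Its coordinates in the deposited counts differ from those of the annotation used here. Its deposited gene length is 775 bases, while its principal transcript in that annotation has 1326 bases. Of the 50-base words of that transcript, 44.71% occur in another gene.

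Levels of different members are comparable only per length. Mean CPM per kilobase of the principal transcript was highest for Rpl41 at 1514, followed by Rplp1 at 1374, Rps15 at 877.3, Rplp0 at 739.8 and Rpl13 at 689.8. By the gene length deposited with the counts, Rplp1 at 1374 came before Rpl41 at 754.4, and Rpl13 was at 207.3, rank 28, so the order at the top depends on the length used. By both lengths it was lowest for Rpl24 at 1.81, Rps10 at 6.57 and Rpl13a at 15.6. Those 3 are the members that share over 20% of their exon bases with another gene on the same strand: Rpl24 shares 46.99% with Gm28037, Rpl13a 29.38% with Gm45713 and Rps10 20.55% with RPS10-NUDT3. These overlapping genes had 0 counts in every library. The sources used here do not say how reads in the shared bases were counted, so the levels of Rpl24, Rps10 and Rpl13a are uncertain. Among the 74 other members, leaving out Rps19bp1 and Rps27rt, the level per kilobase ran from 37.4 (Rps15a, whose principal transcript is 5179 bases long) to 1514, a ratio of 40.5.

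Rpl24 had 1.13, 1.41 and 1.95 CPM after PBS and 0.938, 1.09 and 0.848 CPM after Candida albicans (log2 change -0.64 ± 0.37, SE), Rps10 had 4.42, 8.06 and 9.49 CPM after PBS and 3.95, 4.89 and 4.16 CPM after Candida albicans (log2 change -0.76 ± 0.32, SE) and Rpl13a had 15.4, 21.4 and 24.0 CPM after PBS and 11.8, 12.6 and 12.9 CPM after Candida albicans (log2 change -0.70 ± 0.19, SE; adjusted p = 0.0931). Rpl13a and Rpl24 were separate between groups, and Rps10 overlapped. Without these 3 genes, an alternative added after the data were seen, 36 members were called lower and the median was -0.45. The members also share sequence with their many pseudogenes: the median member had 51.7% of its 50-base words in at least 1 other gene. The 5 members with 90% or more of their words elsewhere had a median log2 fold change of -0.42, with 1 called lower. The 7 with under 10%, among them Rps15a and Rpl22, had -0.46, with 4 called lower. Of all genes, 16.2% were called lower at the same unadjusted p under 0.05.

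**Figure D4:**
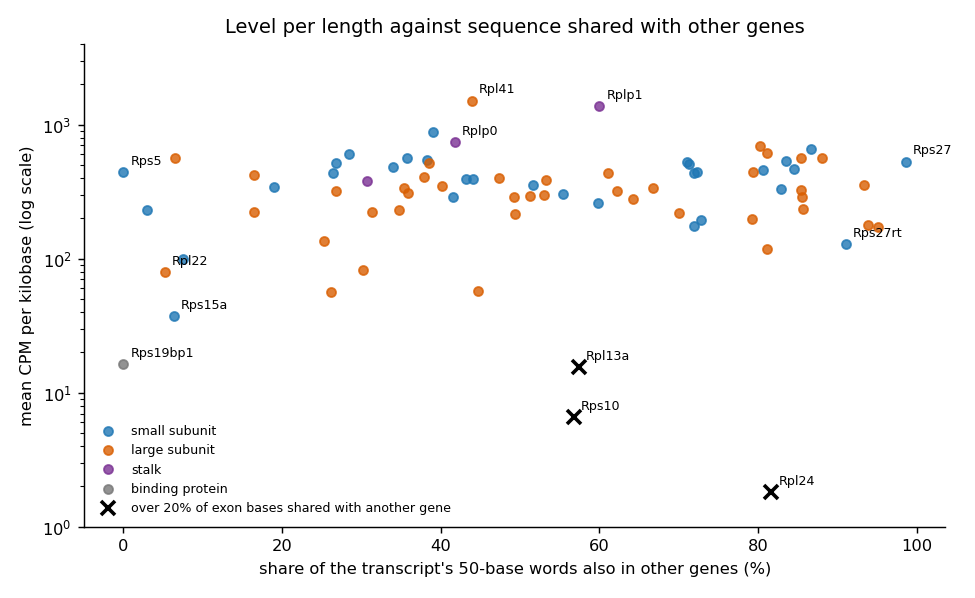
Mean CPM per kilobase of the principal transcript over the 6 libraries (vertical log axis) against the percentage of the transcript's 50-base words that also occur in other genes (horizontal axis), 1 point per gene. Crosses mark Rpl24, Rps10 and Rpl13a, which share over 20% of their exon bases with another gene and lie at 1.81, 6.57 and 15.6 CPM per kilobase, below all other members.

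Processed pseudogenes are copies of spliced messages, and those of ribosomal proteins are among the most numerous. The table held 399 annotated ribosomal protein pseudogenes, of which 197 had a count and 77 were tested. Of these, 12 were called lower (15.6%, against 16.2% of all genes) and 0 higher at an unadjusted p under 0.05, so the share called was near that of all genes, and the median log2 fold change was -0.45. They took 0.120%, 0.133% and 0.205% of counts with PBS and 0.0850%, 0.0963% and 0.104% with Candida albicans. Per 100 counts of the members there were 4.76, 4.71 and 4.79 pseudogene counts with PBS and 5.125, 4.82 and 5.119 with Candida albicans. The pseudogene share of counts thus rose and fell with that of the members. The number per 100 member counts was nevertheless higher in each Candida albicans library than in each PBS library. Reads of a member and of its pseudogenes cannot be told apart where their sequences are identical, and whether the pseudogenes are transcribed was not tested.

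Some of the paralogs whose name ends in l can stand in for a core ribosomal protein. Of 8 paralogs listed by name, 5 were tested, 0 were called at an unadjusted p under 0.05 and the median log2 fold change was -0.31. Rps27l was at log2 change 0.05 ± 0.14, Rpl22l1 at log2 change -0.31 ± 0.25, Rpl7l1 at log2 change -0.45 ± 0.20, Rpl36al at log2 change -0.76 ± 0.41 and Rps4l, annotated as a transcribed processed pseudogene, at log2 change 0.30 ± 0.19. Rps27l turned negative with library totals (-0.23) and without Candida albicans replicate 2 (-0.007). Log2 ratios of paralog to core gene were compared over the 5 pairs by two-sided exact permutation tests. With 3 libraries on each side the smallest p these allow is 0.1. The ratio of Rps4l to Rps4x was higher with Candida albicans by 0.671 (exact p = 0.2, adjusted p = 0.667), that of Rps27l to Rps27 by 0.472 (exact p = 0.3, adjusted p = 0.667) and that of Rpl22l1 to Rpl22 by 0.151 (exact p = 0.4, adjusted p = 0.667). The ratios of Rpl36al to Rpl36a (-0.103, exact p = 0.6) and of Rpl7l1 to Rpl7 (-0.054, exact p = 1.0) were lower. None of the 5 differences passed the test. Rpl10l had 0 counts in all libraries.

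Fau, a ribosomal protein gene that the naming rule misses, encodes Rps30 fused to a ubiquitin-like protein. It was at 619.8, 661.3 and 792.5 CPM with PBS and 683.7, 645.4 and 633.4 CPM with Candida albicans, so that the groups overlapped (log2 change -0.08 ± 0.16). Its sign turned positive with DESeq2 size factors (0.01) and without PBS replicate 3 (0.07).

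Lists of genes that build ribosomes also had medians below 0. Of all genes in the main test, 60.5% were below 0, 16.2% were called lower and 13.4% higher. The counts for each list below stand beside these shares. Of 36 ribosome biogenesis genes, 34 were below 0 and 31 were called lower at an unadjusted p under 0.05, with a median log2 fold change of -0.92. Wdr12, which acts in large-subunit assembly, had 6.65, 9.88 and 10.6 CPM after PBS and 3.56, 4.42 and 4.16 CPM after Candida albicans (log2 change -1.16 ± 0.25; adjusted p = 0.0786). Utp14a and Wdr75, which act in small-subunit processing, were at log2 change -1.12 ± 0.25 and log2 change -1.07 ± 0.25, and the nucleolar protein Mybbp1a at log2 change -0.98 ± 0.23. All 8 tested noncoding snoRNA host genes, a class listed for known TOP starts, were below 0 and 7 were called lower, with a median of -0.97. Among them, Gas5 had 64.4, 94.3 and 110.1 CPM with PBS and 40.1, 49.8 and 46.0 CPM with Candida albicans (log2 change -0.98 ± 0.21; adjusted p = 0.0786), although its RefSeq window holds no run of 7 or more C or T near the start. For Wdr12 and Gas5 the groups were separate, and Snhg5 was at log2 change -1.39 ± 0.32.

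Of 14 genes of RNA polymerase I, which transcribes ribosomal RNA, 14 were below 0 and 6 were called lower, with a median of -0.52. The catalytic subunit Polr1a was at log2 change -1.19 ± 0.23 (adjusted p = 0.0757), and its partners Polr1b and Polr1e at log2 change -1.10 ± 0.31 and log2 change -1.15 ± 0.30. Of 14 genes for the import and chaperoning of ribosomal proteins, 13 were below 0 and 6 were called lower, with a median of -0.44. They included the importin Ipo5 (log2 change -0.79 ± 0.16) and Tsr2, the chaperone of Rps26 (log2 change -1.16 ± 0.29). Heatr3, which brings Rpl5 to assembly, was also called lower (log2 change -1.05 ± 0.24). Mitochondrial ribosomal protein genes, a list added after the data were seen, had a median of -0.39, with 68 of 77 below 0, 25 called lower and 1 higher; leaving out 1 library gave 40 lower without PBS replicate 1, 2 without PBS replicate 2, 4 without PBS replicate 3, and 3, 12 and 5 without Candida albicans replicates 1, 2 and 3. With DESeq2 size factors these lists kept medians below 0, of -0.82 for biogenesis, -0.88 for snoRNA hosts, -0.42 for RNA polymerase I, -0.36 for import and -0.29 for mitochondrial ribosomal proteins. The count of biogenesis genes called lower was 14 and 17 without PBS replicates 2 and 3, and 18 and 16 without Candida albicans replicates 1 and 3. None of these genes passed an adjusted p of 0.05, and no difference between lists was tested.

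**Figure D5:**
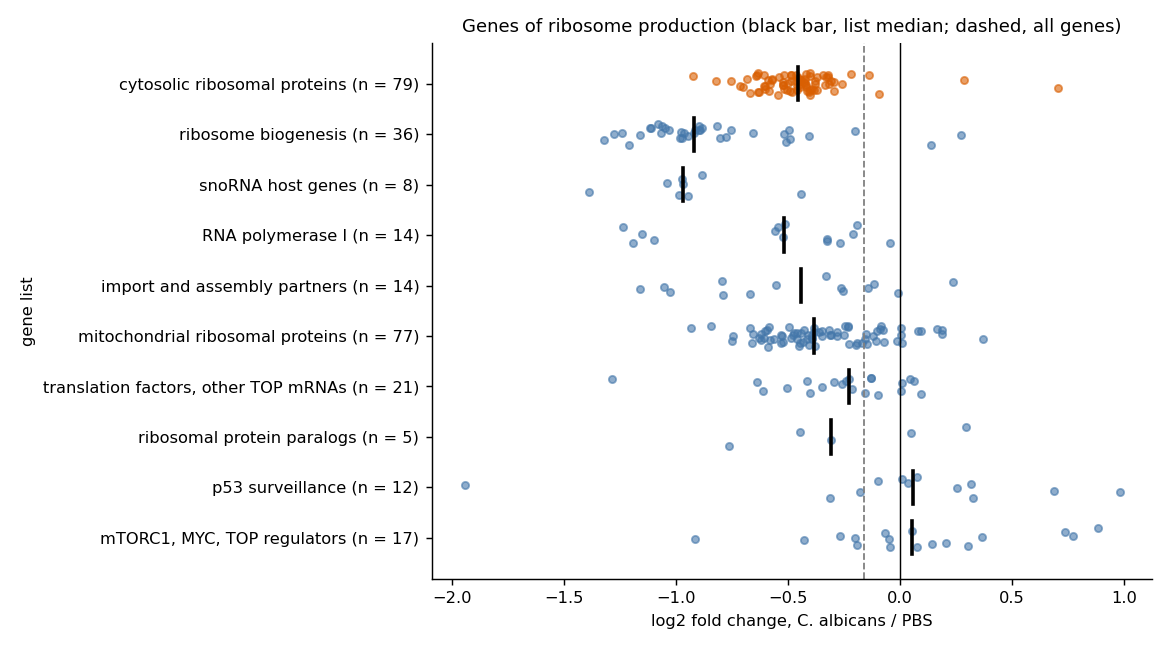
Log2 fold change (Candida albicans over PBS, horizontal axis) of each tested gene in 10 lists (vertical axis), with black bars for list medians and a dashed line for the median of all genes (-0.16). Ribosome biogenesis genes (median -0.92) and snoRNA host genes (-0.97) lie further left than the 79 ribosomal protein genes (-0.46), and the regulator lists spread on both sides of 0.

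Translation factors and other messages with TOP starts had a median closer to 0. Of 21, 16 were below 0, 6 were called lower and 0 higher, with a median log2 fold change of -0.23; without PBS replicate 3 the median was -0.06, and 3 were called lower without that library or any Candida albicans library. The 6 were Nap1l1, a histone chaperone (log2 change -1.28 ± 0.29), Npm1, a nucleolar histone and ribosome chaperone (log2 change -0.64 ± 0.15), the elongation factor subunits Eef1d (log2 change -0.61 ± 0.16) and Eef1g (log2 change -0.42 ± 0.17), the splicing protein Hnrnpa1 (log2 change -0.50 ± 0.18) and the initiation factor subunit Eif3m (log2 change -0.35 ± 0.13), of which Eef1g and Eif3m were named after their values were seen. The main elongation factors Eef1a1 and Eef2 were at log2 change -0.15 ± 0.21 and log2 change 0.06 ± 0.20, and Tpt1 at log2 change 0.05 ± 0.17. The signs of Eef2 and Tpt1 turned negative with library totals (-0.22 and -0.24). That of Eef2 also turned negative without Candida albicans replicate 3 (-0.02), and that of Eef1a1 turned positive without PBS replicate 3 (0.03). Rack1, a scaffold protein bound to the small subunit, was at log2 change -0.40 ± 0.23.

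Regulators of ribosome production went both ways. Of 17 genes for mTORC1, MYC and TOP control, 8 were below 0, 2 were called lower and 3 higher (0 to 2 lower and 1 to 5 higher without 1 library), with a median of 0.06 that turned to -0.23 with library totals. Myc had 14.5, 21.8 and 24.1 CPM with PBS and 7.505, 14.8 and 9.67 CPM with Candida albicans, where replicate 2 reached the PBS range (log2 change -0.91 ± 0.31; adjusted p = 0.121). Rheb, the activator of mTORC1, was also called lower (log2 change -0.27 ± 0.11), and was named after its value was seen. Max, the partner of MYC, had 217.3, 179.1 and 132.5 CPM with PBS and 334.3, 301.6 and 267.2 CPM with Candida albicans, without overlap (log2 change 0.77 ± 0.21; adjusted p = 0.0909). Larp4, which binds poly(A) tails (log2 change 0.37 ± 0.12), and Eif4ebp2, a repressor of cap-dependent initiation that mTORC1 inactivates (log2 change 0.30 ± 0.12), were the others called higher, while Mtor was at log2 change 0.08 ± 0.10 (-0.20 with library totals) and Larp1 at log2 change -0.43 ± 0.29. Of 12 genes of ribosome surveillance and the p53 response, 3 were called higher and 0 lower, with a median of 0.06 that turned to -0.23 with library totals, where 1 was called higher and 3 lower. The 3 were Sesn1 (log2 change 0.98 ± 0.16), Sesn2 (log2 change 0.69 ± 0.16) and Mdm2 (log2 change 0.32 ± 0.11), and Mdm2 was at 0.03 with library totals. Sestrins restrain mTORC1. The activity of these pathways was not measured, and messages alone do not give the rate of translation.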

How the data were processed

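PolyA RNA of intestinal epithelium was sequenced in 6 libraries, 3 per group. The authors deposited raw read counts per gene, whole numbers with no normalization. The submitters' processing notes name featureCounts 2.0.1, the aligner HISAT2 2.2.1, the trimmer Trim Galore 0.6.7 and the assembly mm10; the sources used here give no strand setting, annotation release or treatment of reads that match several genes.

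The main test was run in edgeR 4.0.16 under R 4.3.3. Genes passing filterByExpr (minimum count 10, minimum total 15) were kept, 16313 of 29031 with a count, and libraries were scaled by TMM. Candida albicans was compared with PBS by the two-sided quasi-likelihood test (robust=TRUE), and p-values were adjusted by Benjamini-Hochberg over every gene tested, at a threshold of 0.05. CPM values use TMM-scaled totals. Standard errors were taken from the F statistic. Paralog ratios added 0.5 to each CPM. Alternatives used DESeq2 1.42.0, limma 3.58.1 and other scalings, filters and subsets of libraries. Of these fits, only the main edgeR fit was tested on simulated data, in which genes varied independently of each other. The smallest chi-square between libraries was 32.8 per degree of freedom, above sampling noise, so each counted as 1 sample.

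Exon overlap, snoRNA genes and 50-base words came from GENCODE M21 on GRCm38, where 77 of the 79 members have the same coordinates as in the table; start sequences came from RefSeq. The members and gene lists were chosen with earlier results of these data known. Members were named if they had one of the 8 lowest p-values in either direction, one of the 5 highest or 5 lowest levels per kilobase, or a listed role or paralog; up to 4 genes of lowest p were named from each other list.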

Additional observations from a re-analysis of the deposited data

How the results depend on the processing

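The median log2 fold change of the members was below 0 under all 20 alternative fits, from -0.75 with library totals only to -0.24 without PBS replicate 3. That of all genes was below 0 in them too, from -0.45 with library totals to -0.07 without PBS replicate 1. The members' median minus that of all genes ran from -0.46 with the smooth muscle covariate to -0.15 without PBS replicate 3. With library totals 73 members were called lower at an unadjusted p under 0.05 (92.4%, against 33% of all genes) and 0 higher (against 5.28%). DESeq2 size factors gave 13 lower (16.5%, against 12.9%). The smooth muscle score in the model gave 12 lower (15.2%, against 13.4%) and 2 higher (against 10.7%). Leaving out 1 library at a time gave 4 to 31 members lower and 0 to 1 higher. The ends were 5.06% against 18.7% of all genes without Candida albicans replicate 1, and 39.2% against 14.8% without PBS replicate 1. Without Candida albicans replicate 3 the share was also under that of all genes (8.86% against 9.27%). In these fits 0 to 2620 genes passed an adjusted p under 0.05 in all. Where 2 libraries remain in a group, they are assumed to vary like the other 3. Without replicate 1 of both groups 11 members were lower (13.9%, under the 19.2% of all genes) and 0 higher, and 2110 genes passed in all. Without Rps19bp1 and the retrogene 0 were higher. The count over all genes, 0 in the main test, was 2911 with DESeq2's Wald test, 2569 with limma-voom quality weights (where 0 members were higher), 552 without a count filter, 42 at a mean of 5 CPM or more, 42 with the smooth muscle covariate, 188 with library totals and 3 with upper quartile scaling. The cause of these differences was not tested. With the replicate number as a block, 2080 genes passed in all, 46 members were lower (58.2%, against 22% of all genes) and 0 higher at an unadjusted p. Deviations of same-numbered libraries correlated at 0.576, 0.357 and 0.0458. PBS replicate 2 correlated more with Candida albicans replicate 3 (0.408) than with replicate 2 of that group. The other unlike-numbered libraries correlated at -0.503 to -0.009. The numbers were not taken as pairs.

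Of 559 values of the 28 named members under alternatives, 531 kept their sign and did not pass an adjusted p of 0.05, 21 passed it and 7 changed sign. In the main test 0 members passed that threshold, so no value could lose it, and the 531 do not measure stability. Without PBS replicate 3, 22 of the 28 moved by over 1.5 times. The changes of sign were in Rps27a and Rpl17. Rps27a was 0.02 with DESeq2's Wald test and with DESeq2 size factors, 0.17 with quality weights and 0.19 without Candida albicans replicate 1. It was 0.23 without PBS replicate 3 and 0.11 without replicate 1 of both groups (-0.48 to 0.23 over single libraries left out). Rpl17 was -0.02 with library totals. Without 1 library at a time, the ratio of Rpl7l1 to Rpl7 ran from -0.229 to 0.219 and that of Rpl36al to Rpl36a from -0.249 to 0.006, both positive without PBS replicate 2 (0.219 and 0.006). The difference in the members' share of counts was -0.777 percentage points without PBS replicate 3 and -1.65 without PBS replicate 1, the ends of its range. Rpl24, at about 1 CPM, is the member most limited by depth.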
